A study of Mus musculus with 6 samples.

Results

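The NEDD4-family ubiquitin ligases and their membrane adaptors were examined in 6 RNA sequencing libraries of mouse spleen. The 10 members were chosen by gene symbol: the ligases Itch, Nedd4, Nedd4l, Wwp1, Wwp2, Smurf1, Smurf2 and Hecw2, and the adaptors Ndfip1 and Ndfip2. All 10 were found among the 40808 Entrez gene IDs of the counts table, and all 10 passed the filter on low counts that left 14110 genes to test. Of the libraries, 3 came from mice labelled as not receiving Dox (replicates 4, 5 and 6) and 3 from mice labelled as receiving it (replicates 10, 11 and 12). The labels name splenic leukaemia cells of mice that had received a bone marrow transplant as the source of all the RNA. The labels do not give the type of leukaemia, the gene that Dox controls, its dose or duration, or the strain, age and sex of donors and recipients. Nothing in the labels says whether each library came from a separate mouse, so the p-values measure the spread between these libraries, which may be technical. The study's title places ITCH in a pathway with UVRAG and the ESCRT machinery that attaches K27-linked ubiquitin to NOTCH.

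NEDD4-family proteins are E3 ubiquitin ligases that carry a C-terminal catalytic HECT domain, which receives ubiquitin on a cysteine before passing it to the substrate. Their WW domains bind short proline-rich PY motifs in substrates or in adaptors. NDFIP1 and NDFIP2 are small membrane proteins of the endosome and Golgi whose PY motifs recruit and activate several of the ligases. In T cells, loss of ITCH or of NDFIP1 is known to cause spontaneous T cell activation and inflammation in mice, and ITCH is known to bind NOTCH1.

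The 3 members that passed the test in the comparison below were Nedd4, which was lower with Dox, and Wwp2 and Smurf1, which were higher. The DNA just upstream of these 3 genes is shown so that the regions can be compared; RefSeq promoter entries (GRCm38.p6) were found for 6 of the 10 members. The stretches are chr9:72662081-72662330 (+ strand) for Nedd4, chr8:107436120-107436333 (+ strand) for Wwp2 and chr5:144965900-144966080 (- strand) for Smurf1, each ending at the last base before the annotated gene. Capitals mark the GC-box letters GGGCGG on either strand.
Nedd4: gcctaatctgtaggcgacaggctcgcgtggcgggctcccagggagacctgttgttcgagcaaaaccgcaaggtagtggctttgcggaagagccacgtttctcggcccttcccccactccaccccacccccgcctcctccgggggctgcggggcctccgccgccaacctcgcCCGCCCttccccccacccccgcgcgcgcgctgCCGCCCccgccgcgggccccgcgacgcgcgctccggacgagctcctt
Wwp2: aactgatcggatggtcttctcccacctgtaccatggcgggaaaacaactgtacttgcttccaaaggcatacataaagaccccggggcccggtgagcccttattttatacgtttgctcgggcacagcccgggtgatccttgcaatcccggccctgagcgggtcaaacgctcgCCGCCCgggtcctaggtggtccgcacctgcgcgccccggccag
Smurf1: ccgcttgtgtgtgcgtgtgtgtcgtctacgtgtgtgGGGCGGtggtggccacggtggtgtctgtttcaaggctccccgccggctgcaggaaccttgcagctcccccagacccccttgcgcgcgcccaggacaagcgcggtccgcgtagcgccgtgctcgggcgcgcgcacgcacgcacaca
All 3 stretches were rich in G and C, with 32 CG dinucleotides in 250 bases for Nedd4, 17 in 214 for Wwp2 and 23 in 181 for Smurf1. The letters GGGCGG occurred in the Nedd4 stretch 2 times without overlap and in the stretches of Wwp2 and Smurf1 1 time each. Of 32851 RefSeq promoter windows cut to the same lengths, 32.7% held these letters in 250 bases, 27.6% in 214 bases and 21.2% in 181 bases. Neither CACGTG, the E-box letters that MYC and MAX bind, nor TGGGAA on either strand, the core letters bound by the NOTCH partner RBPJ, occurred in any of the 3. CACGTG was in 6.02%, 4.80% and 3.72% of all windows of those lengths, and TGGGAA in 21.6%, 18.9% and 16.4%.

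Total counts ran from 5541486 to 8725767 per library, and 3 counts, the limit that a count of 0 allows, corresponded to 0.344 to 0.541 CPM, that is counts divided by the library total and put on a common scale (counting error only). The groups differed in many genes. Of the 14110 genes tested, 45.6% passed an adjusted p of 0.05 (edgeR quasi-likelihood test, Benjamini-Hochberg), 23.6% higher and 22.1% lower with Dox, so that 51.6% of calls were higher, or 64.3% when libraries were scaled by size only. Of lineage markers, 8 of 10 T cell genes were lower with Dox. Their summed level went from 2773 to 3013 CPM without Dox to 265 to 348 CPM with it. This sum and those that follow are CPM after TMM scaling, a correction for library composition. All 9 B cell genes were higher (30.0 to 36.6 against 1713 to 1817 CPM), as were 6 of 9 myeloid genes, with 1 lower (195 to 196 against 1877 to 2030 CPM). The erythroid list held 4 higher and 2 lower of 8, the endothelial and stromal list 2 higher and 2 lower of 7 (181 to 205 against 192 to 286 CPM), and the natural killer list 1 higher and 1 lower of the 3 genes tested. The lower myeloid gene was not called without replicate 4 of the group without Dox, and 1 endothelial or stromal gene in place of 2 was lower without replicate 4 or 5 of that group or without Dox replicate 10. Ly6g was at 0 in all libraries without Dox and Gzma in all libraries with Dox. Klre1, which was not tested, was at 0 in all libraries without Dox and had 35, 0 and 0 counts with Dox. Y-linked genes had 545 to 801 counts in each library without Dox and 0 in each with Dox, while Xist, a noncoding RNA made from an inactive X, had 193 to 324 counts without Dox and 3347 to 5669 with Dox. Both kinds of RNA were thus present without Dox, and Dox and the sex of the cells cannot be told apart. The spread also differed: the common biological coefficient of variation was 0.190 without Dox and 0.516 with Dox. In bulk RNA, fewer cells of a type and less RNA per cell cannot be told apart. The part that cell composition, sex-linked expression and unequal spread had in the results below was not tested.

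Levels are given as CPM after TMM scaling, which corrects for library composition. The libraries read the 3′ end of each mRNA, so 1 fragment is expected per transcript and CPM were compared between genes without dividing by length. Fold changes nevertheless followed transcript length, as described below. The fitted trend ran from 0.19 for Wwp2 to 0.98 for Hecw2 on the log2 scale. Its part in the order of the members and in their moves between groups was not tested. Without Dox the order of mean levels was Nedd4 (150 CPM), Ndfip1 (87.5), Wwp1 (42.7), Itch (35.8), Ndfip2 (22.3), Smurf2 (15.04), Wwp2 (13.5), Nedd4l (13.1), Smurf1 (7.13) and Hecw2 (3.89). Nedd4 was above Ndfip1, and Ndfip1 above Wwp1, in every library of both groups. Without Dox, Wwp1 and Itch overlapped, and so did each neighbouring pair from Ndfip2 down to Smurf1, while Itch stood above Ndfip2 and Smurf1 above Hecw2. With Dox the top 4 kept their order, at 103 CPM for Nedd4, 72.0 for Ndfip1, 41.5 for Wwp1 and 30.0 for Itch. Below Ndfip1 every neighbouring pair overlapped with Dox, and Wwp2 and Smurf1 moved up to the fifth and the sixth place from the seventh and the ninth, while Ndfip2 moved down from the fifth to the ninth.

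**Figure D1:**
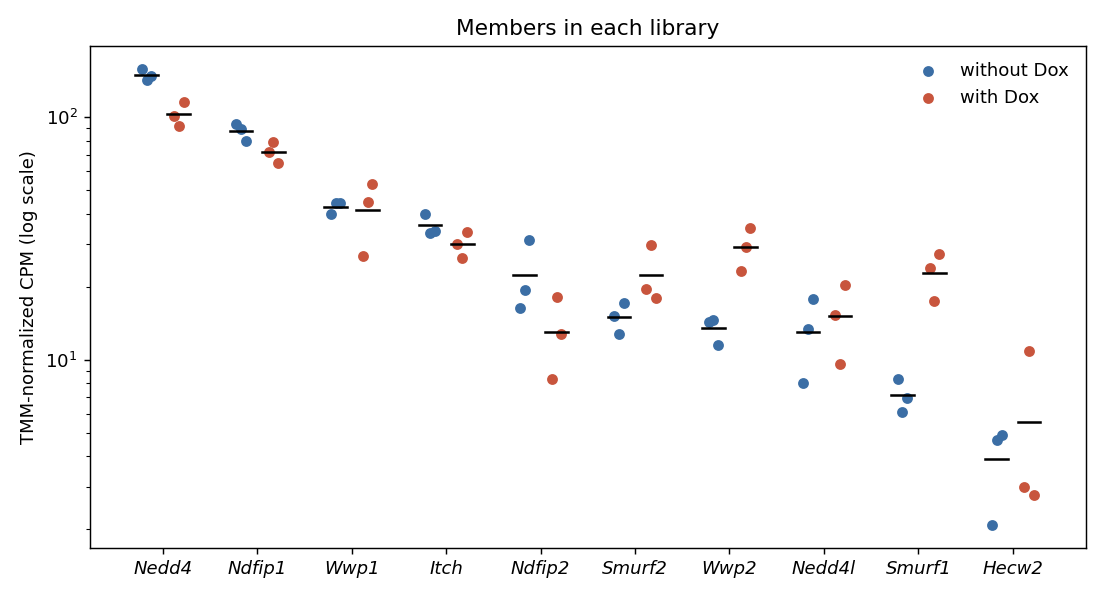
Each point is the TMM-normalized CPM of a member in 1 library, on a log axis, with the group mean as a bar; blue is without Dox and red with Dox, 3 libraries each. The 3 Dox points of Smurf1 (17.5 to 27.3 CPM) and Wwp2 (23.3 to 35.1) sit above all points without Dox, and those of Nedd4 (91.5 to 115) below them.

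The members were compared between groups to see whether any ligase or adaptor of the pathway in the title differed in mRNA level. Smurf1 and Wwp2 rose with Dox, Nedd4 fell, and the other 7 members did not pass the test. The 3 calls of 10 stand against 45.6% of all genes tested, and the 2 higher and 1 lower against 23.6% and 22.1%. The median log2 fold change of the 10 members was 0.081, and that of all tested genes was 0.073. Libraries of the groups separated without overlap in 5 members, against 59.6% of all tested genes. The count depended on the processing: with the trend of fold change with transcript length removed, 2 members were higher and 4 lower, against 43.1% of all genes tested.

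**Figure D2:**
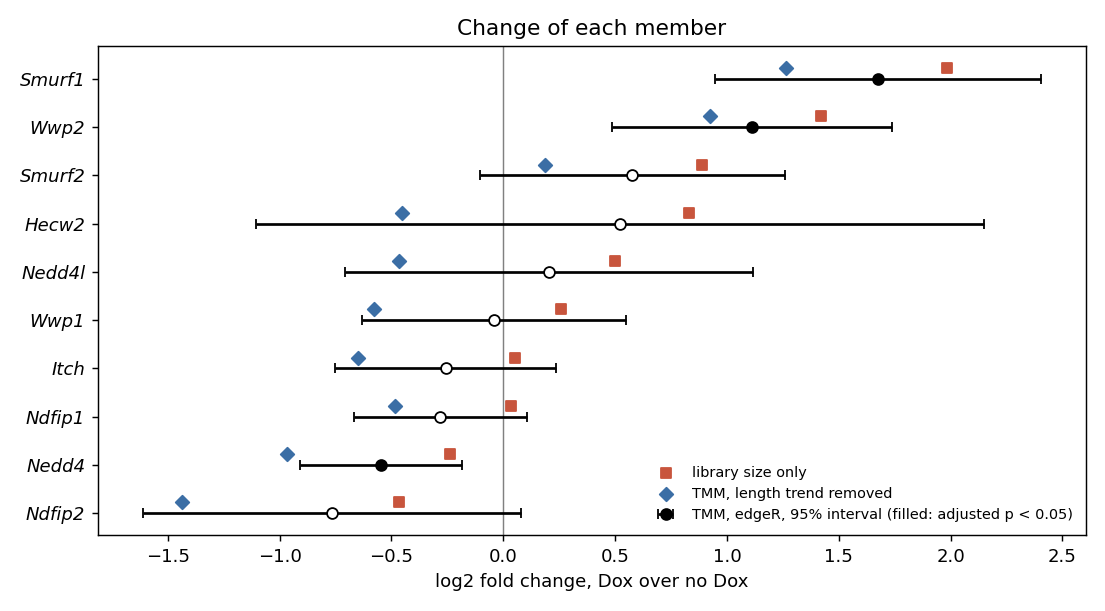
Each row is a member, and the x axis is the log2 fold change of Dox over no Dox; circles with bars are the edgeR estimate with its 95% interval under TMM scaling, filled where the adjusted p passed 0.05. Red squares give the value with scaling by library size only and blue diamonds that with the trend of fold change with transcript length removed; Smurf1, Wwp2 and Smurf2 stay above 0 and Nedd4 and Ndfip2 below 0 in all 3, while Itch, Ndfip1, Wwp1, Nedd4l and Hecw2 change sign.

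Itch (Entrez gene 16396) lies on chromosome 2 from 155133481 to 155226855 on the + strand (GRCm38.p6), and its longest coding transcript has 26 exons. It measured 40.0, 33.4 and 34.1 CPM without Dox and 30.1, 26.3 and 33.6 CPM with Dox, each value resting on 165 to 268 counts. The Dox library replicate 12 lay inside the range of the libraries without Dox, so the groups overlapped. The log2 fold change was -0.26, with a 95% interval from -0.75 to 0.24 (adjusted p = 0.372 by edgeR, 0.0382 to 0.86 over 16 alternatives). An increase of more than 0.24 or a decrease of more than 0.75 on the log2 scale was therefore outside the interval. The sign was negative in 15 alternatives and turned to 0.054 with scaling by library size only, while Itch was called lower with the length trend removed (-0.65, adjusted p = 0.0382 by edgeR). Of the counts of the 8 ligases, Itch took 13.97%, 12.3% and 11.96% without Dox and 12.4%, 10.2% and 11.01% with Dox, a measure that does not depend on library scaling. That share differed by -1.56 percentage points, or -0.947 without replicate 4 of the group without Dox, and the groups overlapped (exact two-sided permutation p = 0.3, where 0.1 is the smallest p that 3 against 3 allows).

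Nedd4 (Entrez gene 17999; chromosome 9, 72662331 to 72749851, + strand, 29 exons in the longest coding transcript) encodes the founding member of the family. It measured 158, 143 and 148 CPM without Dox and 101, 91.5 and 115 CPM with Dox, on 704 to 1060 counts per library. All 3 Dox libraries were lower than the lowest library without Dox. Nedd4 fell with a log2 fold change of -0.55 ± 0.16 (SE), and edgeR gave an adjusted p of 0.0201 (0.00111 to 0.248 over 16 alternatives). The call was lost without replicate 4 of the group without Dox (log2 fold change -0.55, adjusted p = 0.0726) and with scaling by library size only (-0.24, adjusted p = 0.248). Within the ligase counts, Nedd4 took 55.3%, 52.5% and 52.1% without Dox against 41.6%, 35.3% and 37.7% with it, so every Dox library had a smaller share (p = 0.1 in an exact two-sided permutation test, the smallest it can give here).

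Nedd4l (Entrez gene 83814; chromosome 18, 64884480 to 65217826, + strand) is the closest relative of Nedd4 and is best known for removing the epithelial sodium channel from the cell surface. It had 8.06, 13.4 and 17.8 CPM without Dox and 15.2, 9.57 and 20.4 CPM with Dox. The groups overlapped over most of their range (log2 fold change 0.21 ± 0.41 (SE), edgeR adjusted p = 0.709). Its sign turned in 3 alternatives, among them the fits without replicate 4 of the group without Dox (-0.092) and without Dox replicate 12 (-0.094).

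Wwp2 (Entrez gene 66894; chromosome 8, 107436334 to 107559290, + strand) hosts the microRNA gene Mir140, which overlaps an exon annotation on the same strand. WWP2 is known to act on the iron transporter DMT1. Wwp2 measured 14.3, 14.6 and 11.5 CPM without Dox (68 to 96 counts) and 23.3, 29.1 and 35.1 CPM with Dox (171 to 283 counts). The lowest Dox library was well above the highest without Dox. Wwp2 rose 2.16-fold, a log2 fold change of 1.11 ± 0.28 (SE; adjusted p = 0.00892 by edgeR, 0.00194 to 0.0588 over 16 alternatives). Leaving out replicate 6 of the group without Dox gave 0.92 with an adjusted p of 0.0588, the only alternative of the 16 in which the call was lost.

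Wwp1 (Entrez gene 107568; chromosome 4, 19608296 to 19709004, - strand), the nearest relative of Wwp2 in name and domain layout, is known for targeting the transcription factor KLF5. It had 40.0, 44.2 and 44.1 CPM without Dox and 26.7, 44.7 and 53.1 CPM with Dox. The libraries without Dox lay within 5 CPM of each other, while the Dox libraries fell on both sides of them. Its log2 fold change was -0.042 ± 0.26 (SE), far from the threshold (adjusted p = 0.909 by edgeR), and its sign turned in 4 of 16 alternatives. The Wwp1 to Wwp2 count ratio was 2.79, 3.03 and 3.82 without Dox against 1.15, 1.53 and 1.52 with it. These ratios did not overlap, and being ratios within a library they do not depend on library scaling.

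Smurf1 (Entrez gene 75788; chromosome 5, 144876495 to 144965899, - strand) encodes a ligase known for marking BMP-pathway SMAD proteins, TGF-beta receptors and RHOA. In the TMM-scaled edgeR fit it showed the largest fold change of the 10 members; with the length trend removed that of Ndfip2 (-1.44) was larger in size. Smurf1 measured 8.36, 6.08 and 6.95 CPM without Dox (30 to 56 counts) and 23.8, 17.5 and 27.3 CPM with Dox (170 to 207 counts). The lowest Dox library was more than 2 times the highest without Dox. Smurf1 rose 3.19-fold, a log2 fold change of 1.67 ± 0.33 (SE; adjusted p = 0.00224 by edgeR). The call was kept in all 16 alternatives, with log2 fold changes from 1.27 with the length trend removed to 1.98 with library size only and adjusted p-values from 0.000123 to 0.0215.

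Smurf2 (Entrez gene 66313; chromosome 11, 106820061 to 106920747, - strand) encodes a ligase with overlapping targets in the TGF-beta pathway. It had 15.2, 12.8 and 17.1 CPM without Dox and 19.6, 29.6 and 18.1 CPM with Dox. The groups did not overlap, yet the lowest Dox library was within 1 CPM of the highest without Dox. A log2 fold change of 0.58 ± 0.31 (SE) did not pass the test (adjusted p = 0.151 by edgeR, 0.0397 to 0.648 over 16 alternatives). Without Dox replicate 11 the value was 0.30. The Smurf1 to Smurf2 count ratio was 0.549, 0.476 and 0.406 without Dox against 1.22, 0.590 and 1.51 with it. Smurf1 thus had fewer counts than Smurf2 in all 3 libraries without Dox and more in 2 of 3 with Dox.

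Hecw2 (Entrez gene 329152; chromosome 1, 53806872 to 54195034, - strand), a large ligase of the same family, was the lowest of the 10 members. Its counts were 14, 23 and 29 without Dox against 22, 106 and 21 with it, equal to 2.09, 4.66 and 4.92 CPM and 2.99, 10.9 and 2.77 CPM. The Dox library of replicate 11 stood apart from the other 5. Hecw2 had a log2 fold change of 0.52 ± 0.73 (SE; edgeR adjusted p = 0.587), and -0.45 when that library was left out. Its 95% interval, from -1.10 to 2.15, was the widest of the 10 members.

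Ndfip1 (Entrez gene 65113; chromosome 18, 38418907 to 38465197, + strand) was the more abundant adaptor. It had 93.3, 89.4 and 79.8 CPM without Dox and 72.0, 78.9 and 65.0 CPM with Dox. The groups did not overlap, but replicate 11 with Dox was within 1 CPM of replicate 6 without Dox. A log2 fold change of -0.28 ± 0.17 (SE) did not pass the test (adjusted p = 0.214 by edgeR), its sign turned with scaling by library size only (0.033), and it passed with the length trend removed (-0.48, adjusted p = 0.046). Ndfip2 (Entrez gene 76273; chromosome 14, 105258591 to 105309298, + strand) had 16.4, 19.5 and 31.0 CPM without Dox and 8.30, 18.1 and 12.8 CPM with Dox. The groups overlapped, because replicate 11 with Dox lay above replicate 4 without Dox. Its log2 fold change of -0.77 ± 0.38 (SE) did not pass (adjusted p = 0.126 by edgeR), and it passed the test without Dox replicate 11 (-1.10, adjusted p = 0.0476) and after removal of the length trend (-1.44, adjusted p = 0.0129).

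The 2 adaptors were set against the ligases within each library. Their summed counts were 0.383, 0.400 and 0.389 of the summed ligase counts without Dox against 0.331, 0.374 and 0.255 with it. The ratio was lower in all 3 Dox libraries, with a mean difference of -0.0710 (p = 0.1 in an exact two-sided permutation test, the lowest it can reach). That difference rested in good part on Dox replicate 12, without which it was -0.0385. The summed level of the 8 ligases was 281 ± 8.0 CPM without Dox against 269 ± 32.4 CPM with it (SD, n = 3 each), and these overlapped. With scaling by library size only the direction turned, to 251 ± 11.3 CPM without Dox against 297 ± 27.3 CPM with it, and the groups separated (p = 0.1 in the exact test). The shares do not depend on the scaling: those of Nedd4, Wwp2 and Smurf1 were separate between groups and those of Itch, Nedd4l, Wwp1, Smurf2 and Hecw2 overlapped. Wwp2 took 5.01%, 5.37% and 4.05% of the ligase counts without Dox and 9.59%, 11.2% and 11.5% with Dox, and Smurf1 took 2.92%, 2.24% and 2.44% and then 9.81%, 6.75% and 8.94%. Shares sum to a fixed total, so a smaller share of Nedd4 raises the others.

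**Figure D3:**
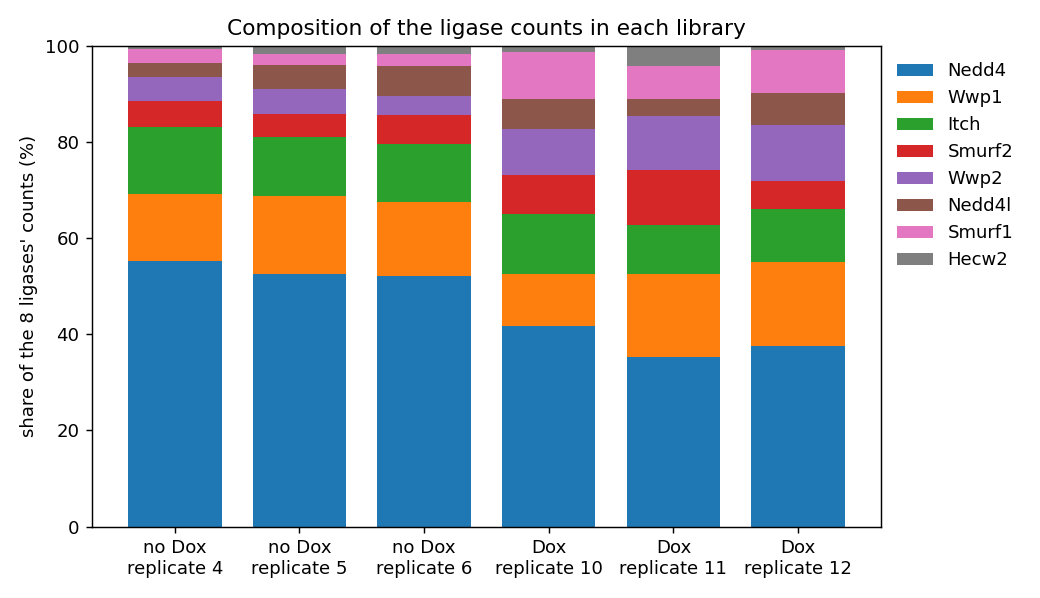
Each bar is 1 library and its segments are the shares (%) of the summed counts of the 8 ligases. The Nedd4 segment covers 52.1% to 55.3% without Dox and 35.3% to 41.6% with Dox, and the Wwp2 and Smurf1 segments are wider in each Dox library.

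Fold changes followed transcript length across the 85% of tested genes that had an annotated length, and the members' transcripts are long. Where the trend was removed, genes without an annotated length were left uncorrected. The median longest transcript was 5460 bases for the members and 3450 for those tested genes. Among the 3000 tested genes with the shortest transcripts the median log2 fold change was -0.68, and among the 2997 with the longest it was 0.51. With this trend removed, Smurf1 (1.27) and Wwp2 kept their calls, and 4 members passed the test as lower: Itch (-0.65, adjusted p = 0.0382 by edgeR), Nedd4 (-0.97, adjusted p = 0.00111), Ndfip1 (-0.48, adjusted p = 0.046) and Ndfip2 (-1.44, adjusted p = 0.0129). The median of the 10 members was then -0.48. Haemoglobin genes took 8.61% to 9.04% of the counts without Dox and 14.1% to 15.9% with Dox. They did not move together. Hba-a1 and Hba-a2 had log2 fold changes of 0.95 and 1.01, Hbb-bs fell (-1.23) and Hbb-bt was not called (-0.24). Whether RNA or library quality differed between the groups, and its part in the length trend, was not tested.

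The genes whose pattern over the 6 libraries was most like that of Itch were Nosip, Tm2d2 and Cwc25, chosen among 4395 tested genes within 1 log2 CPM of it. Their root mean square differences from Itch in mean-centred log2 CPM were 0.0747, 0.0752 and 0.0804. Among the members within that range of level, Wwp1 had the smallest difference (0.324), which placed it at rank 773 of the 4395 genes.

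The other HECT ligases, which share the catalytic domain but not the WW domains, were examined from a list of 18. With Dox 9 rose and 0 fell, where 23.6% of all tested genes rose and 22.1% fell, and their median log2 fold change was 0.72. The count of 0 lower was also obtained at an unadjusted p of 0.05, with DESeq2 and with limma-voom, while 1 was lower without Dox replicate 10 or without Dox replicate 12. Herc1, a giant HECT protein, had 104, 100 and 108 CPM without Dox and 316, 278 and 356 CPM with Dox (log2 fold change 1.60 ± 0.16 (SE), edgeR adjusted p = 3.85e-05). Hectd4 and Herc2, the latter known from the DNA damage response, rose by 1.51 and 1.39 on the log2 scale. With the length trend removed, 2 of the 18 were higher and 1 lower (21.5% of all tested genes in each direction), and Herc1, Hectd4 and Herc2 had log2 fold changes of 0.35, 0.24 and 0.14 that did not pass. Hecw1, the family's remaining ligase, had 0 to 22 counts per library. Its log2 fold change of -0.31 did not pass the test (adjusted p = 0.855 by edgeR). The value was 0.25 without Dox replicate 11 and -1.89 with limma-voom, neither past the threshold.

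Of 18 other proteins that recruit or bind NEDD4-family ligases, 17 were tested, and 6 rose and 1 fell (2 fell by DESeq2, and also when replicate 5 of the group without Dox, Dox replicate 11 or Dox replicate 12 was left out). The 7 calls of 17 are 41.2%, near the 45.6% of all tested genes. The alpha-arrestins, which carry PY motifs and bring the ligases to membrane proteins, held the largest rise: Arrdc4 had 7, 1 and 1 counts without Dox and 75, 51 and 76 with Dox (log2 fold change 4.06 ± 0.84 (SE), edgeR adjusted p = 0.0032; 3.57 to 5.35 when a library was left out). Arrdc3 had 7.16, 8.31 and 9.49 CPM without Dox and 44.1, 26.04 and 30.97 CPM with Dox, a rise of 2.02 on the log2 scale. The lysosomal membrane proteins Laptm4b and Laptm4a went in opposite directions, Laptm4b with a log2 fold change of 2.12 and Laptm4a of -1.52, and both passed the test in all 16 alternatives. Laptm5, a lysosomal protein of blood cells that binds the ligases, was the most abundant of the list at 356 ± 41.6 CPM without Dox against 337 ± 39.2 CPM with it (SD, n = 3 each), which did not pass the test (adjusted p = 0.715 by edgeR). Its log2 fold change of -0.079 turned to 0.23 with library size only.

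Of 27 reported substrates, 25 were tested, with 7 higher and 7 lower, against 45.6% of all tested genes called in either direction. With the length trend removed 4 were higher and 10 lower, against 21.5% of all tested genes in each direction. Notch1 encodes a NOTCH receptor, and the study's title names NOTCH without a number. It went from 114, 118 and 107 CPM without Dox to 10.8, 14.4 and 11.3 CPM with Dox (log2 fold change -3.21, adjusted p = 3.25e-06 by edgeR). With the length trend removed the value for Notch1 was -4.05. Jun, a target of ITCH in T cells, fell by 2.19 on the log2 scale. Smad7, the adaptor through which SMURF proteins reach TGF-beta receptors, rose with Smurf1: it had 20, 7 and 3 counts without Dox and 143, 130 and 176 with Dox (log2 fold change 3.47 ± 0.58 (SE), edgeR adjusted p = 0.000939). Without replicate 4 of the group without Dox the value for Smad7 was 4.24. Klf5, a target of WWP1, rose by 1.82 and the T cell factor Runx3 by 1.47 on the log2 scale. The call of Klf5 was lost without replicate 5 of the group without Dox (adjusted p = 0.0516 by edgeR).

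Of 14 E2 enzymes and deubiquitinases that serve or oppose the ligases, 5 rose and 5 fell, or 71.4% called against 45.6% of all tested genes. With the length trend removed 2 were higher and 5 lower, where 43.1% of all tested genes were called. With library size only 3 were lower, as Ube2d1 (-1.15, adjusted p = 0.0759 by edgeR) and Ube2d2a (-0.44, adjusted p = 0.119) were not called. Each of the 5 that fell encodes an E2 enzyme: Ube2l3, Ube2d1, Ube2d2a, Ube2d3 and Ube2e3. Ube2d3 went from 257, 275 and 325 CPM to 83.8, 104 and 112 CPM (log2 fold change -1.52 ± 0.18 (SE), edgeR adjusted p = 0.000104). With the length trend removed Ube2d3 was at -2.98 and Ube2d2a at -1.46, for each the lowest of 16 alternatives. Ube2l3, the E2 enzyme used by ITCH and other HECT ligases, had 180, 192 and 189 CPM without Dox and 61.4, 100 and 102 CPM with Dox (log2 fold change -1.09). Ube2d1 fell by 1.47, Ube2e3 fell by 1.30 and Ube2d2a fell by 0.75 on the log2 scale, and the call of Ube2d1 was lost in 4 of the 6 fits without a library, those without replicate 4, 5 or 6 of the group without Dox and without Dox replicate 11 (edgeR adjusted p = 0.054 to 0.106). Of the higher genes Ube2l6, an E2 enzyme of the interferon-induced modifier ISG15, had 52.5, 49.2 and 49.7 CPM without Dox and 167, 189 and 160 CPM with Dox (log2 fold change 1.77). The other 4 were the deubiquitinases Usp8 (log2 fold change 1.005), Cyld (0.73), Usp15 (0.66) and Usp9x (0.63), the last known to protect ITCH from its own ubiquitination. With the length trend removed, Usp8 was at 0.85, Cyld at 0.031, Usp15 at -0.34 and Usp9x at -0.40, and only Usp8 of these 4 passed the test. The call of Usp8 was lost without replicate 4 or 6 of the group without Dox, and that of Cyld without any 1 of that group's libraries or without Dox replicate 10. The call of Usp15 was lost without any 1 of the libraries without Dox, and that of Usp9x without replicate 5 or 6 of that group. With no filter on low counts the calls of Cyld, Usp15 and Usp9x were also lost (edgeR adjusted p = 0.0844, 0.0809 and 0.0994). The number of higher genes was 2 in place of 5 without replicate 4 or without replicate 5 of the group without Dox. It was 1 without replicate 6 of that group. It was also 2 with the length trend removed, with no filter on low counts and at an adjusted p under 0.01.

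**Figure D4:**
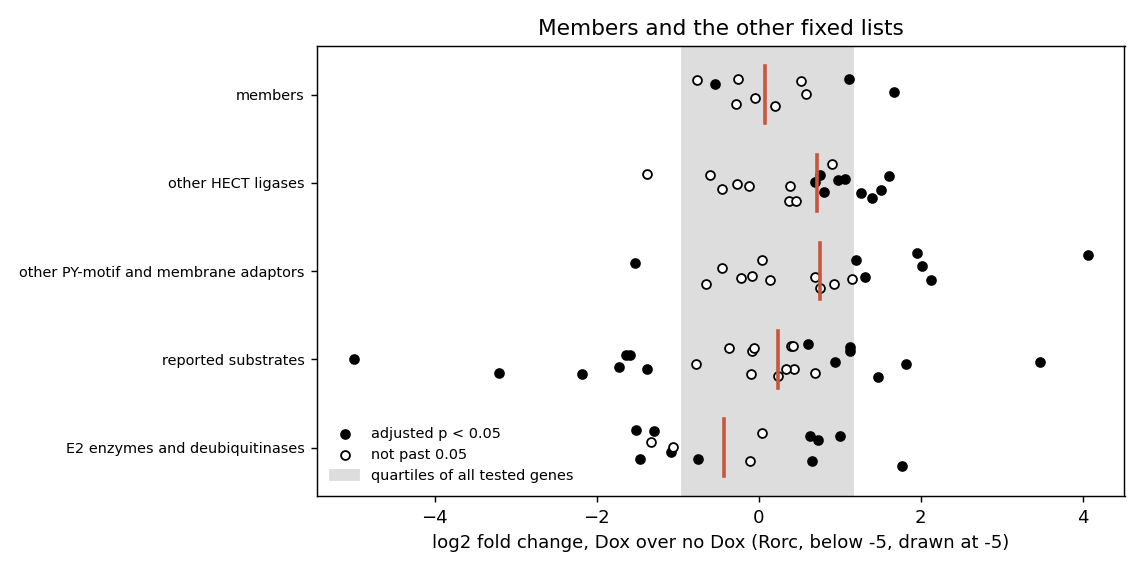
Each point is a tested gene, the x axis is the log2 fold change of Dox over no Dox, and the rows are the 10 members and the 4 other lists; filled points passed an adjusted p of 0.05, red bars are list medians, and the grey band spans the quartiles of all tested genes (-0.95 to 1.16). The medians are 0.081 for the members, 0.72 for the other HECT ligases, 0.75 for the other adaptors, 0.24 for the substrates and -0.43 for the E2 enzymes and deubiquitinases.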

How the data were processed

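Libraries of polyadenylated RNA were made with the QuantSeq 3′ mRNA-Seq V2 kit (forward version), per the labels' protocols. The authors deposited raw counts per Entrez gene ID, 1 column per library; STAR, featureCounts and build GRCm38 are named in the submitters' processing notes, without versions, and the handling of strand, multi-mapping reads and molecular identifiers is not given in the sources used here. Columns were matched to samples by title. Symbols came from a RefSeq table (GRCm38.p6), which matched 96.5% of IDs. Low counts were removed by filterByExpr (at least 10 counts, total at least 15), and the genes were scaled with TMM and tested in edgeR 4.0.16 (R 4.3.3) with the quasi-likelihood F-test on all 6 libraries, with p-values adjusted over 14110 genes (Benjamini-Hochberg, threshold 0.05). The fit was run on simulated counts with few changed genes, as many rising as falling, and the same dispersion in both groups. That setting differs from these data, so the run does not show how the fit handles unequal spread or many changed genes. Standard errors are the log2 fold change divided by the square root of F. Counts that agreed within sampling noise were looked for, and no pair of libraries did (chi-square per degree of freedom at least 6.85). No GENCODE M21 gene overlapped the last 500 bases of a member's coding transcripts, but A330084C13Rik, Gm12353 and Gm16259 overlap exons of Nedd4l, Wwp1 and Ndfip2 on the opposite strand, and Mir140 and Gm27322 overlap exons of Wwp2 and Smurf2 on the same strand.

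Members and lists were chosen with earlier results of these data known. All 10 members are named, and of each other list the 3 largest rises and falls past the threshold, except 1 gene that is not reported here; Hecw1, Laptm5, Ube2l3, Ube2d2a, Usp15, Usp9x and the markers were named after their values were seen. Alternatives were RLE, upper-quartile and size-only scaling, no filter beyond 0 counts, at least 10 counts in every library, DESeq2 1.42.0, limma-voom (limma 3.58.1) without and with group weights, leaving out mitochondrial, antigen receptor and haemoglobin genes, a lowess length trend (longest GENCODE transcript) removed by offsets, thresholds of 0.01 and 0.1, and leaving out each library.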

Additional observations from a re-analysis of the deposited data

How the results depend on the processing

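No paired analysis was possible because no replicate number occurs in both groups. The number of members called higher with Dox was 2 and ran from 1 to 2 over the 6 fits with a library left out, being 1 without replicate 6 of the group without Dox. The number called lower was 1 and ran from 0 to 2 over these fits, 0 without replicate 4 of the group without Dox and 2 without Dox replicate 11. It was 0 with library size only, 0 at an adjusted p under 0.01 and 4 with the length trend removed. The number of genes called over the whole table stayed within 1.5 times 6438. The Itch share ran from -2.16 to -0.947 percentage points and the adaptor to ligase ratio from -0.0983 to -0.0385 without a library, each with the same sign.

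The median of all genes moved by 0.31 on the log2 scale with library size only, by -0.12 with no filter and by -0.10 with limma-voom. Itch (0.054), Ndfip1 (0.033) and Wwp1 (0.26) turned sign with library size only, and Wwp1 also with upper-quartile factors (0.055), with at least 10 counts in every library (0.077) and without Dox replicate 10 (-0.27 to 0.17 over the fits without a library). Nedd4l turned with the length trend removed (-0.47), without replicate 4 of the group without Dox and without Dox replicate 12 (-0.094 to 0.43 over these fits), and Hecw2 with the length trend removed (-0.45) and without Dox replicate 11 (-0.45 to 0.83). None of these 5 members passed the threshold where its sign turned, and the cause of each turn was not tested. Smurf2 passed the threshold with library size only (0.89). Among the other named genes, Laptm5 turned sign with upper-quartile factors (0.019), library size only (0.23), at least 10 counts in every library (0.039) and the length trend removed (0.069), Usp15 (-0.34) and Usp9x (-0.40) with the length trend removed, and Hecw1 without Dox replicate 11 (-1.15 to 0.25 over the fits without a library), none past the threshold there.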
